A study of Sus scrofa with 6 samples.

Results

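FIBIN, BLNK, SH3BGR, FAM84A, LOC396867 and C1H14orf37 are 6 genes with little or no described role in enterocytes. They were picked by name because their signal was much higher in ALI than in SMC cultures of IPEC-1 cells on these same arrays. Every probe set whose annotated symbol was exactly 1 of these names was taken, which gave 9 probe sets of 23999 on the array (without the Affymetrix controls) and 6 genes of 6765. FIBIN, FAM84A and C1H14orf37 were each measured by 2 probe sets and the other 3 genes by 1. Of a pair, the probe set with the higher mean signal stands for the gene and is called its main probe set, and the other its second probe set.

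IPEC-1 is a porcine line of small intestinal epithelial cells established from the gut of neonatal pigs without transformation. In the air-liquid interface (ALI) culture the cells carried only a thin film of medium on the apical side, while a column of medium stood on the cells of the submerged membrane culture (SMC). Both were grown on porous membranes in the same medium, from which the serum was withdrawn stepwise. RNA of 3 ALI and 3 SMC cultures was hybridized to 6 GeneChip Porcine Genome Arrays. The labels place P109, P111 and P113 in replicate 1, 2 and 3 of each culture, so the replicates are passages of a single line, with no treatment besides the culture type. All cultures are bulk samples, in which fewer cells of a type and less RNA per cell cannot be told apart.

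The labels name jejunum as the source, and a free-text line that speaks of liver was not used. The epithelial markers EPCAM, CDH1, KRT8, KRT18 and KRT19 had mean log2 signals between 12.23 and 13.66 in both cultures, and VIL1 (villin, of the brush border) had 6.12 in ALI and 6.56 in SMC cells. The median of all log2 values was 6.34 to 6.39 per array, and the 25% quantile, below which the lowest 25% of the values of an array lie, was 4.54 to 4.62 on the ALI and 4.52 to 4.57 on the SMC arrays. No detection calls were used here, so that a signal among the lowest 25% may be background. The values are log2 signals throughout, and a difference is ALI minus SMC in log2 units, with the standard error (SE) of the limma fit. As probe sets differ in affinity, signals are compared between arrays and not between probe sets.

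The known roles of these genes lie mostly outside the gut. BLNK is the adaptor that links the kinase SYK to phospholipase C gamma, BTK and VAV once the B cell receptor is engaged. FIBIN, the fin bud initiation factor, is a secreted protein that was described in the zebrafish, where it acts downstream of Wnt and retinoic acid signals in the start of the pectoral fin bud. SH3BGR is a small glutamate-rich protein with a thioredoxin-like fold, known from heart and skeletal muscle, and FAM84A carries a domain related to lecithin retinol acyltransferase (LRAT). C1H14orf37 is the porcine counterpart of human C14orf37 (ARMH4), a membrane protein described as a partner of the cytokine receptor subunit IL6ST and of RICTOR in the mTOR complex. For LOC396867 the tables give a protein-coding locus with no name.

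In 8 of the 9 probe sets, all 3 ALI signals lay above all 3 SMC signals, and the same 8 had an adjusted p under 0.05 in limma. Over all probe sets, 10.3% were separated in this way, 0.663% were called higher in ALI cells and 1.23% lower. As the genes were chosen for this difference, the counts describe them and are no result about them, and no p-value is given for it. Among the 6765 genes, each with its main probe set, 11 (0.163%) were at least 4-fold higher in ALI cells. By size of the difference the 6 genes took places 2, 3, 5, 6, 7 and 10 among them, and the others were RGS5, ADAMDEC1, EMB, FAM213A and RGS4, which were read after the values were seen. FAM84A at 2.13 and RGS4 at 2.11 were the last above this size, and FMO1 followed at 1.80. The places of LOC396867, C1H14orf37 and BLNK rest on SMC signals among the lowest 25% of array values. This holds for EMB too, with all 3 SMC signals there, and ADAMDEC1 had 1 there. Measured from the mean 25% quantile of the SMC arrays instead, BLNK was 3.52-fold higher, under the 4-fold limit, C1H14orf37 6.8-fold and LOC396867 5.99-fold. These values set ALI signals of different probe sets against the same level, so that they do not rank the genes.

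**Figure D1:**
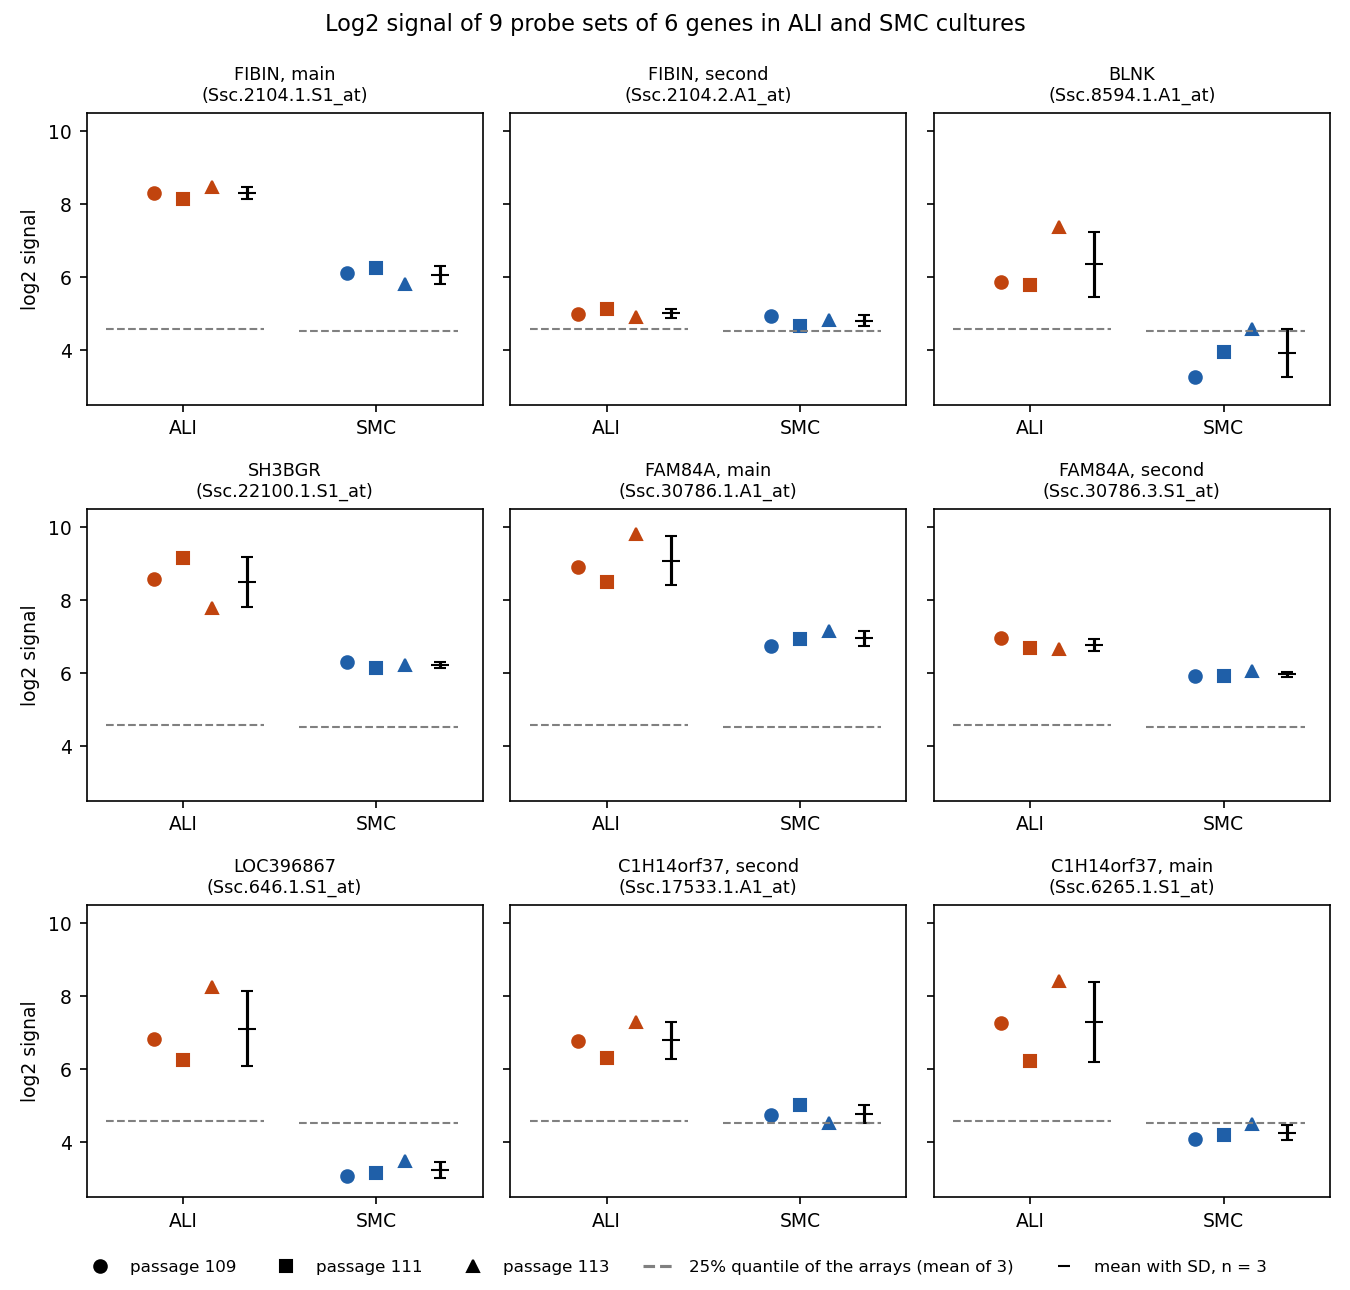
Log2 signal of the 9 probe sets on the 6 arrays (y axis), by culture (x axis), with the passage as symbol, the mean with SD of 3 arrays as bar and the mean 25% quantile of the 3 arrays as dashed line. All ALI points lie above all SMC points except in the second FIBIN probe set, and the SMC points of LOC396867 and of the main C1H14orf37 probe set lie under the dashed line.

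FIBIN was separated between the cultures in 1 of its 2 probe sets. With the main probe set, the brighter of the pair, the ALI arrays gave 8.30, 8.15 and 8.48 at P109, P111 and P113, and the SMC arrays gave 6.12, 6.26 and 5.80. ALI cells had a mean of 8.31 ± 0.164 (SD, n = 3) against 6.06 ± 0.235 (SD, n = 3), a difference of 2.25 (SE 0.15) or 4.76-fold. Both groups kept close together, and the lowest ALI signal stood 1.89 above the highest SMC signal, the widest gap after that of LOC396867. In the array's ranking the ALI signals lay at the 73.5 to 76.4 percentile of all values and the SMC signals at the 42.6 to 48.5 percentile, so that neither culture was among the lowest 25%.

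The second FIBIN probe set gave 4.98, 5.13 and 4.91 in ALI and 4.94, 4.65 and 4.83 in SMC cells. The groups overlapped, with a difference of 0.20 (SE 0.12) and signals at the 26.9 to 32.5 percentile, just above the lowest 25%. The 2 probe sets of FIBIN therefore differed by 2.05 in their ALI minus SMC values. The median spread between probe sets of 1 gene was 0.19 over 2261 genes with several probe sets. FAM84A (1.325) and C1H14orf37 (1.006) lay above this median too. As these genes were chosen for a large difference, a wide spread may follow from the choice and is no result about them.

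LOC396867 had the largest measured difference of the 6 genes, although its size rests on SMC signals among the lowest 25%. Its probe set gave 6.84, 6.26 and 8.25 in ALI cells at P109, P111 and P113. The SMC signals were 3.08, 3.16 and 3.49. No ALI signal came within 2.77 of an SMC signal, yet the ALI arrays ranged over 1.99 among themselves. The difference of the means, 7.12 ± 1.03 (SD, n = 3) against 3.24 ± 0.215 (SD, n = 3), was 3.87 (SE 0.43) or 14.6-fold. All 3 SMC signals were among the lowest 25% of their array, as in 23.1% of all probe sets, at the 2.3, 3.86 and 9.3 percentile, while the ALI signals lay at the 56.4, 48.4 and 73.5 percentile. Whether the SMC level exceeded background is unknown. Against the mean 25% quantile of the SMC arrays (4.54) the ALI mean was higher by 2.58, or 5.99-fold.

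LOC396866, the protein-coding gene that directly precedes LOC396867 in the RefSeq annotation of the pig, is no member of the chosen genes and was read after the values were seen. Its probe set gave 5.52, 5.73 and 5.53 in ALI and 4.45, 4.56 and 4.73 in SMC cells, with no overlap. The SMC signal at P109 was among the lowest 25% of its array (25% quantile 4.57), and the SMC mean of 4.58 stood near that limit. LOC396866 rose by 1.02 in ALI cells (SE 0.12, adjusted p = 0.00716 from limma over all probe sets). Leaving out any 1 array gave 0.95 to 1.09, with an adjusted p between 0.0138 and 0.0464. Whether its probe set also binds transcripts of LOC396867 was not tested, so that the signal may not be that of LOC396866 alone. Its order over the passages was not that of LOC396867, as the differences at P109, P111 and P113 were 1.08, 1.17 and 0.81 for LOC396866 and 3.76, 3.09 and 4.76 for LOC396867. Of the 24 protein-coding genes within 2 places of the 6 genes, 9 had a probe set with their gene number. The others, among them both direct neighbours of FIBIN (BBOX1 and SLC5A12), were not analysed here, and probe sets without a symbol may measure them. The paper names BBOX1 among the genes most strongly higher in ALI cells. LOC396866 was called among the 11 probe sets of the 9 genes, and the other 10 did not pass the test. CD86, a costimulatory molecule of antigen-presenting cells on the far side of LOC396867, had a difference of -0.33 (SE 0.10, adjusted p = 0.185 from limma). WRB, an endoplasmic reticulum receptor of tail-anchored proteins next but one to SH3BGR, had 0.01 (SE 0.13, adjusted p = 0.979).

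C1H14orf37 was higher in ALI cells with both of its probe sets. The main probe set gave 7.26, 6.23 and 8.41 in ALI cells and 4.10, 4.19 and 4.50 in SMC cells. The ALI signals ranged over 2.19, more than those of any other of the 9 probe sets. The means of 7.30 ± 1.09 (SD, n = 3) and 4.26 ± 0.209 (SD, n = 3) differed by 3.04 (SE 0.46) or 8.22-fold. All 3 SMC signals fell among the lowest 25%, at the 18.1 to 24.7 percentile, and against the mean 25% quantile of the SMC arrays the ALI mean was higher by 2.77, or 6.8-fold.

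The second probe set gave 6.77, 6.31 and 7.30 in ALI and 4.74, 5.02 and 4.53 in SMC cells. Here the SMC signals lay just above the lowest 25%, at the 25.1 to 32.1 percentile, and the groups did not overlap. The difference was 2.03 (SE 0.24) or 4.09-fold. The 2 probe sets differed by 1.006 in size and shared the order of the ALI arrays, with P113 highest and P111 lowest. The order of the SMC arrays was not shared, as P113 was highest with the former and lowest with the latter probe set.

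BLNK gave signals of 5.87, 5.80 and 7.38 in ALI and 3.25, 3.95 and 4.56 in SMC cells. Its SMC signals were the most dispersed of the 9 probe sets, over a range of 1.31, and P113 was the highest in both cultures. The means were 6.35 ± 0.893 (SD, n = 3) and 3.92 ± 0.656 (SD, n = 3), and the difference was 2.43 (SE 0.46) or 5.37-fold. With the passage as a block the SE fell from 0.46 to 0.18. The SMC signals of P109 and P111 lay among the lowest 25%, at the 5.1 and 16.9 percentile, and that of P113 stood just above it at the 25.7 percentile. Against the mean 25% quantile of the SMC arrays, the ALI mean was higher by 1.81, or 3.52-fold.

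Since BLNK is best known from B cells, their markers are given beside it. Of 10 B cell markers listed, 3 had a probe set with their symbol. CD79B, the signal-transducing chain of the B cell receptor, lay among the lowest 25% on all 6 arrays, with means of 3.85 in ALI and 3.64 in SMC cells. CD40 (the receptor for CD40 ligand, also found on epithelia) had 4.78 and 5.05, and did not pass the test (adjusted p = 0.321 from limma). JCHAIN, the joining chain of polymeric immunoglobulins, gave 4.65, 4.26 and 5.06 in ALI and 3.80, 3.95 and 4.77 in SMC cells, a difference of 0.48 (SE 0.28, adjusted p = 0.485 from limma). As with BLNK, P113 was the highest of each culture for JCHAIN, but not for CD79B or CD40. The share of all probe sets with P113 highest in both cultures was not counted, so that no link to BLNK is drawn from it. The mean log2 signal of the 3 markers was 4.32 to 4.51 on the ALI and 4.18 to 4.47 on the SMC arrays. PTPRC (CD45), the general leukocyte marker, was among the lowest 25% on all 6 arrays, alone of the 6 markers of other immune cells measured. CD2 and TYROBP were there on 4 and 5 arrays. CD3E, CD14 and LCP1 had no signal there, with means of 5.16, 5.50 and 5.19 in ALI and 5.07, 5.45 and 5.19 in SMC cells. The part of JCHAIN-expressing cells in the BLNK signal was not tested.

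SH3BGR gave 8.57, 9.15 and 7.79 in ALI and 6.31, 6.15 and 6.23 in SMC cells. The SMC signals lay within 0.16 of each other, while the ALI signals ranged over 1.36 and were lowest at P113. The means of 8.504 ± 0.684 (SD, n = 3) and 6.23 ± 0.080 (SD, n = 3) differed by 2.27 (SE 0.29) or 4.84-fold. No signal was among the lowest 25%. SMC cells were at the 47.2 to 49.2 percentile, near the middle of the array values.

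FAM84A was higher in ALI cells with both probe sets, although by different amounts. The main probe set gave 8.92, 8.51 and 9.82 in ALI and 6.76, 6.95 and 7.16 in SMC cells. Its difference was 2.13 (SE 0.30) or 4.37-fold, between means of 9.08 ± 0.667 (SD, n = 3) and 6.95 ± 0.202 (SD, n = 3). The second probe set gave 6.97, 6.70 and 6.66 in ALI and 5.92, 5.93 and 6.06 in SMC cells, and its difference was 0.80 (SE 0.12) or 1.75-fold. All FAM84A signals were above the lowest 25%, and the groups did not overlap in either probe set. The order of the ALI arrays differed, as P113 was the highest with the former and the lowest with the latter probe set.

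**Figure D2:**
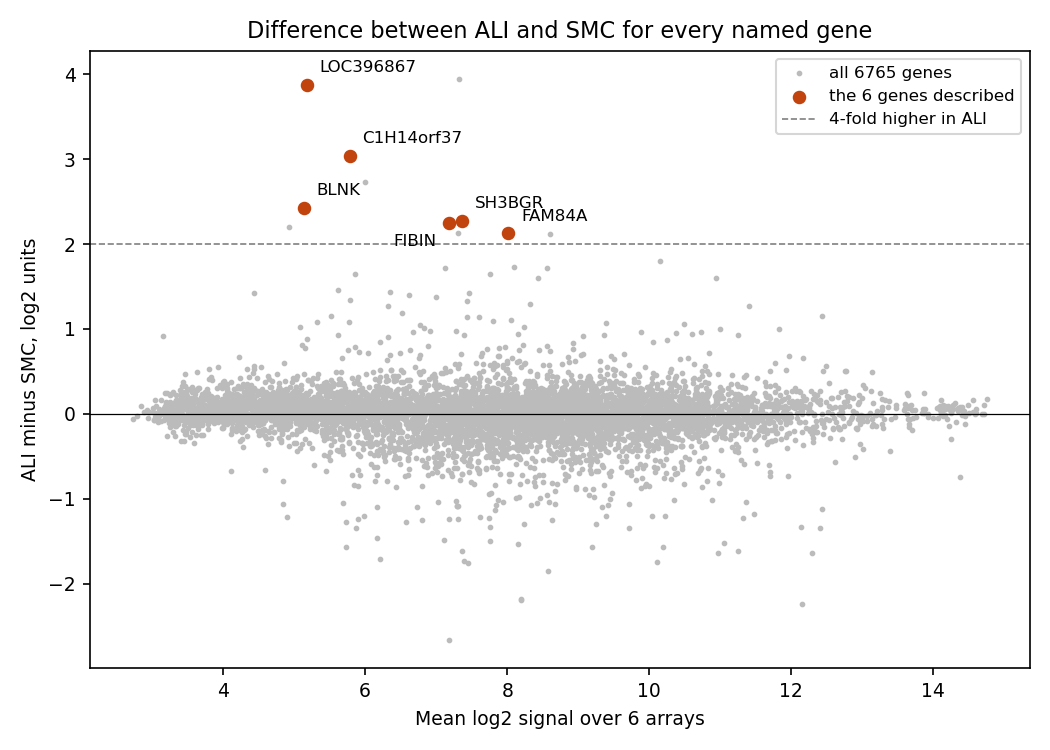
Difference between ALI and SMC cells (y axis, log2 units) against the mean log2 signal over 6 arrays (x axis) for 6765 genes, each as 1 point. The 6 genes described (large points) lie between 2.13 and 3.87, above the dashed line of a 4-fold change that 11 genes passed.

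The size of the difference varied between the passages. In 6 of the 9 probe sets it was largest at P113, intermediate at P109 and smallest at P111. These were the single probe sets of BLNK and LOC396867, both probe sets of C1H14orf37, and the main probe sets of FIBIN and FAM84A. Of all probe sets 20.3% had this order, as had 23.2% of the 151 other probe sets called higher in ALI cells. C1H14orf37 (main probe set) went from 3.17 at P109 to 2.03 and 3.92 at P111 and P113. SH3BGR ran the opposite way with 2.26, 3.001 and 1.56.

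The ALI signals followed this order too, as in the same 6 probe sets they were highest at P113 and lowest at P111. This ALI order was seen in 5277 of 23999 probe sets and in 36.4% of the 151 others called higher. ALI replicate 3 (P113) had a 25% quantile of 4.54, below the 4.62 and 4.61 of the other ALI arrays, and a 75% quantile of 8.37 against 8.28 and 8.27, and the part of this in the order was not tested. Each passage is 1 array per culture, so that the values of a single passage have no replicate of their own.

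**Figure D3:**
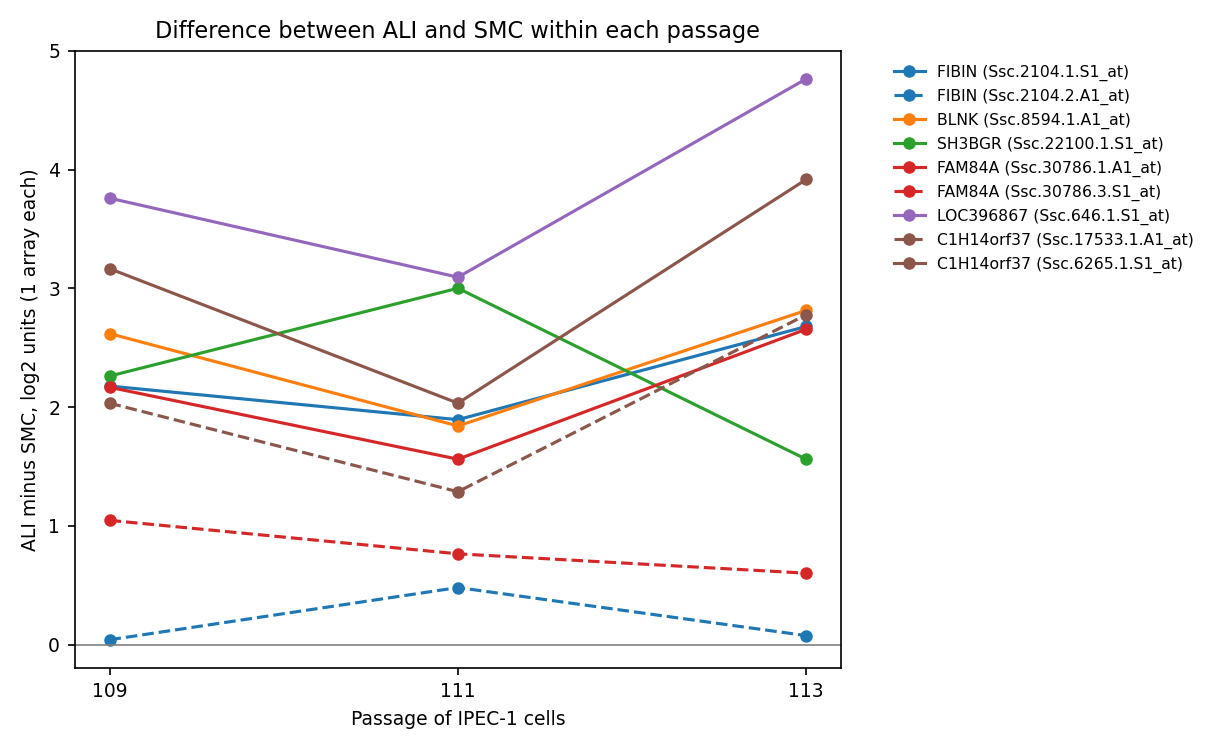
ALI minus SMC difference in log2 units (y axis) at P109, P111 and P113 (x axis), 1 array per culture and passage, for the 9 probe sets. Solid lines are the main probe sets and dashed lines the second probe sets. Solid lines dip at P111 for 5 genes, while SH3BGR peaks there at 3.001.

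Passage was tested as a second factor, since the genes were not chosen on it and it is balanced over the cultures. It goes with the replicate number in both cultures, so that an effect of passage cannot be told apart from other differences between the replicates. The question was whether the signal moved with passage in both cultures, and whether the difference between them did. BLNK had the steepest trend of the 9 probe sets, 0.70 per 2 passages (SE 0.13), but did not pass the test over all probe sets (adjusted p = 0.135 from limma). Its signal at P113 was higher than at P109 by 1.51 in ALI and by 1.31 in SMC cells. LOC396867 followed with 0.45 per 2 passages (SE 0.21, adjusted p = 0.402 from limma), where ALI cells gained 1.41 and SMC cells 0.41 from P109 to P113.

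The trends of the other 7 probe sets lay between -0.22 for SH3BGR and 0.39 for C1H14orf37 (main probe set), with an adjusted p of 0.379 or more from limma. No probe set on the array was called for the passage trend by limma (0%, with 3197 or 13.3% at an unadjusted p under 0.05, BLNK the only one of the 9 among them). With passage as a factor of 3 levels, 12 probe sets were called, and BLNK had an adjusted p of 0.0834 in limma. Without ALI replicate 2, 179 probe sets were called for the trend and BLNK passed the test (0.70 per 2 passages, adjusted p = 0.0167 from limma). Of the B cell markers measured, JCHAIN had a trend of 0.35 (SE 0.12, adjusted p = 0.306 from limma). The other markers had the opposite sign, CD79B with -0.04 (SE 0.08, adjusted p = 0.868) and CD40 with -0.06 (SE 0.07, adjusted p = 0.762 from limma).

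The difference between the cultures was not shown to change with passage for any of the 9 probe sets. The change of the difference per 2 passages ran from -0.35 (SE 0.34) for SH3BGR to 0.50 (SE 0.43) for LOC396867, all with an adjusted p of 1 from limma. Over the array 0% of probe sets were called, and 530 (2.21%) had an unadjusted p under 0.05, none of the 9 among them. Without ALI replicate 1, which leaves P111 and P113 in ALI cells, the change was 1.79 for LOC396867 and 1.99 for C1H14orf37 (main probe set), with an adjusted p of 0.019 and 0.016 from limma. Without ALI replicate 3 it was -0.79 and -1.24 in the same probe sets (adjusted p = 0.367 and 0.149).

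The genes with the most similar profile over the 6 arrays were sought by the root mean square (RMS) difference between profiles centred on their own mean. The search was limited to genes outside the 6 described, and nearest means nearest among these. Likeness between the 6 genes themselves was left out, and some of them may be closer to each other. FAM213A, a peroxiredoxin-like protein, was the nearest gene to FAM84A (main probe set, RMS difference 0.15) and to BLNK (0.37), and was among the 3 nearest of LOC396867 (0.93) and C1H14orf37 (main probe set, 0.58). EMB (embigin, a membrane glycoprotein that accompanies monocarboxylate transporters) was nearest to FIBIN (main probe set, 0.23) and to C1H14orf37 (second probe set, 0.31). For FIBIN, LFNG, a glycosyltransferase that modifies Notch, and NPPC, the precursor of C-type natriuretic peptide, came next at 0.33 and 0.34. ADAMDEC1, a metalloprotease, was nearest to LOC396867 (0.63) and to C1H14orf37 (main probe set, 0.38), with RGS5 second for LOC396867 at 0.66. SH3BGR had the membrane protein TMEM123 (0.44), the carbonyl reductase CBR1 (0.44) and RGS4 (0.47), a regulator of G-protein signaling, as its nearest genes. The RMS difference counts the step between SMC and ALI cells together with the spread within a culture, and the 2 were not separated.

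The second probe sets of FAM84A and FIBIN led to other genes. That of FAM84A was nearest to SULT1E1, an estrogen sulfotransferase, at 0.11 and to LIPA, the lysosomal acid lipase, at 0.12. The nearly flat profile of the second FIBIN probe set was nearest to ZNF789 at 0.02.

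The partners and relatives of the 6 genes were counted in 5 lists, as far as they were measured. SYK, the partner of BLNK, and IL6ST and RICTOR, the partners of C1H14orf37, were not among the measured genes. With culture as the only factor, limma called no measured gene of these lists in either direction. Over all genes, 1.02% were called higher and 1.51% lower in ALI cells (2.53% together), against 2.25% and 3.75% with the passage as a block, and the median difference was 0.01. Of 36 genes of B cell receptor and adaptor signaling around BLNK, 18 were measured, with a median difference of 0.00. At an unadjusted p under 0.05, 1 was higher and 2 were lower. BTK and the sister adaptor LCP2 were among the lowest 25% on all 6 arrays. LYN, a kinase that acts early in this signaling, had a mean of 7.13 in ALI and 6.90 in SMC cells (adjusted p = 0.601 from limma). PIK3AP1, an adaptor of phosphoinositide 3-kinase, had a difference of -0.59 (SE 0.22, adjusted p = 0.263 from limma) and was called with the passage as a block (0.0295). PLCG1, a phospholipase C gamma, had 0.40 (SE 0.12, adjusted p = 0.185 from limma).

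Of the SH3BGR family and small proteins of the thioredoxin fold, 13 of 15 were measured, with a median difference of -0.12 and 0 higher and 3 lower at an unadjusted p under 0.05. The family members SH3BGRL2 and SH3BGRL3 had -0.37 (SE 0.11, adjusted p = 0.181) and -0.30 (SE 0.19, adjusted p = 0.528 from limma), opposite in sign to SH3BGR. Glutaredoxin GLRX had -0.68 (SE 0.21, adjusted p = 0.181 from limma), and passed the test without ALI replicate 2 (0.0334).

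Of the 13 symbols of the LRAT domain family to which FAM84A belongs, PLA2G16, a phospholipase, was the only one measured. It had a difference of 0.75 (SE 0.16, adjusted p = 0.0583 from limma), between a mean of 8.83 ± 0.101 (SD, n = 3) under ALI and of 8.08 ± 0.300 (SD, n = 3) under SMC conditions. With the passage as a block it was called (adjusted p = 0.00998). Of 30 genes of limb bud induction and retinoic acid signaling around FIBIN, 14 were measured, with a median of 0.06 and 3 higher and 3 lower at an unadjusted p under 0.05. The retinoic acid receptor RARB had -0.67 (SE 0.15, adjusted p = 0.0727 from limma), and was called with the block (0.0145) and without ALI replicate 3 (0.0209). FGFR2, a receptor of fibroblast growth factors, had 0.56 (SE 0.16, adjusted p = 0.155 from limma) and was called higher in ALI cells with the block (0.024). The homeobox factor MEIS1 had 0.58 (SE 0.27, adjusted p = 0.368 from limma, 0.0532 with the block).

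Of 28 genes of IL6ST, STAT3 and mTOR complex signaling around C1H14orf37, 14 were measured, with a median of -0.01 and 2 higher and 0 lower at an unadjusted p under 0.05. The kinase SGK1 had 0.44 (SE 0.14, adjusted p = 0.193) and the cytokine LIF 0.32 (SE 0.12, adjusted p = 0.252 from limma), the latter among the lowest 25% on all 6 arrays. STAT3 itself had 0.17 (adjusted p = 0.617).

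**Figure D4:**
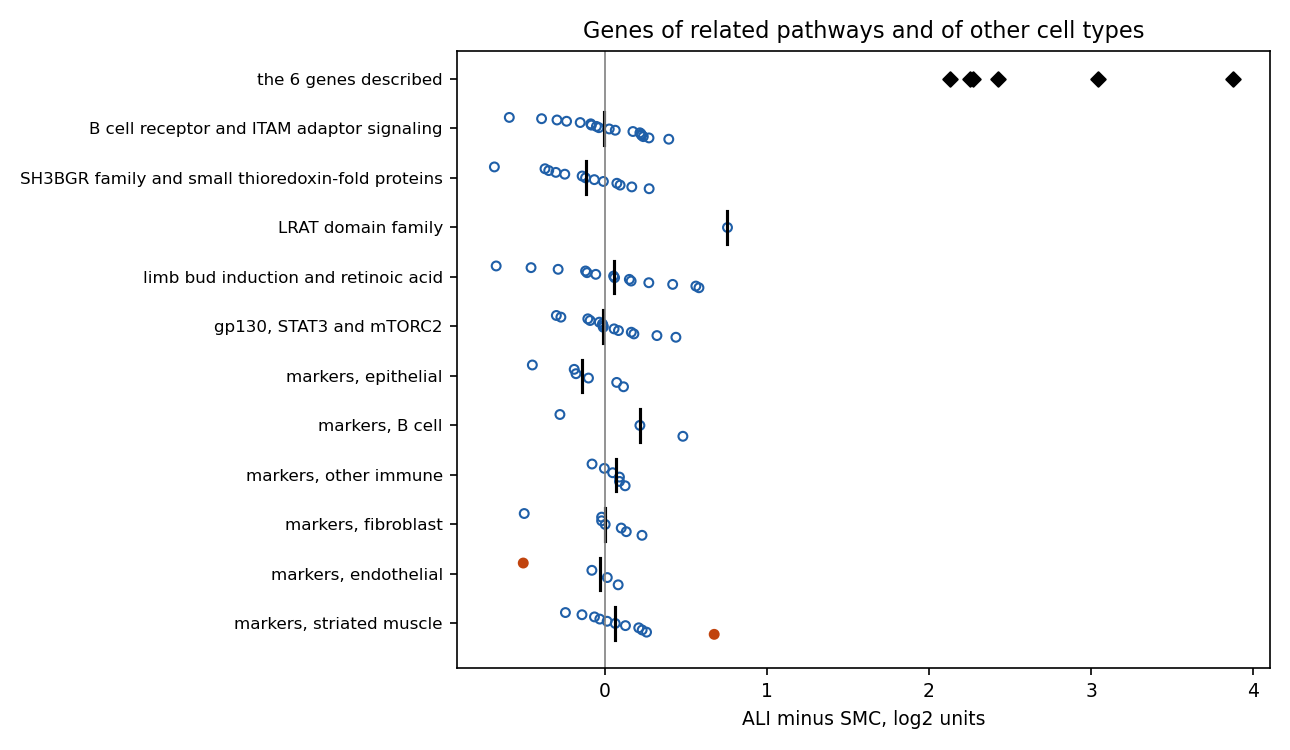
ALI minus SMC difference in log2 units (x axis) of the 6 genes (diamonds, top row) and of the measured genes of 5 related lists and 6 lists of cell type markers (rows). Filled circles passed the test in limma, open circles did not, and black bars are the medians of the lists. Filled circles are PECAM1 at -0.50 and TNNC1 at 0.68, while the 6 genes lie at 2.13 to 3.87.

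As SH3BGR is known from muscle, markers of that tissue are given beside it. Of 14 markers of striated muscle, 11 were measured. Among the lowest 25% on all arrays were 3 of them, the cardiac actin ACTC1, the cardiac troponin TNNT2 and CKM. TNNI3, ACTN2 and DES had no signal there, with means of 7.35, 6.75 and 6.47 in ALI and 7.41, 6.735 and 6.40 in SMC cells. The mean log2 signal of the 11 was 5.51 to 5.66 on the ALI and 5.49 to 5.53 on the SMC arrays. TNNC1, the troponin C of slow and cardiac muscle, was called higher at 0.68 (SE 0.13, adjusted p = 0.0448 from limma), and with the passage as a block the adjusted p was 0.00987. Leaving out any single array ended the call without the block (adjusted p 0.0593 to 0.145), at differences of 0.56 to 0.75. The part of muscle-like expression in the SH3BGR signal was not tested.

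Of 6 other immune, 7 fibroblast, 4 endothelial and 6 epithelial markers measured, PECAM1, which holds endothelial cells together, was called at -0.50 (SE 0.10, adjusted p = 0.0448 from limma, and 0.0302 with the passage as a block). Without the block this call ended on leaving out any single array (0.0792 to 0.149, at differences of -0.54 to -0.47) and after quantile normalization (-0.47, 0.0549). The others did not pass the test. Farthest from 0 were TYROBP at 0.13 and CD2 at 0.09 for immune cells, PDGFRB at -0.50 and COL1A2 at 0.23 for fibroblasts, and VIL1 at -0.45 and KRT18 at -0.19 for epithelium. The fibroblast markers had mean signals of 5.43 to 5.54 on the ALI and 5.42 to 5.57 on the SMC arrays. COL3A1 among them had a difference of 0.13 (SE 0.11, adjusted p = 0.649 from limma) with the only probe set of its symbol. The paper names COL3A1 among the genes most strongly higher in ALI cells, and the cause of this discrepancy was not tested.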

How the data were processed

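RNA of IPEC-1 cells was measured on 6 arrays, 3 per culture type. According to the methods, the authors normalized the arrays by GC-RMA (R package gcrma) after GCOS, for which the submitters' processing notes name version 1.1.1 and the methods a different one. The deposited table holds log2 values for 24123 probe sets and names no normalization. Precision is set by the number of arrays. Values were not scaled again. Without the 124 Affymetrix controls, 23999 probe sets entered limma 3.58.1 (lmFit, eBayes; R 4.3.3), with p-values adjusted by Benjamini-Hochberg over all of them and called under 0.05. Culture was the only factor for ALI against SMC. Passage (as a number) and its interaction with culture were added for the passage tests. The fits were tested on simulated data. Alternatives were leaving out each array, quantile normalization, only probe sets with a mean above 4 or 6, an intensity trend of the prior variance, passage as a block or factor, the mean over the probe sets of a gene, and the t-test of the methods.

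By the platform annotation, 10069 probe sets had 1 symbol, 198 several and 13732 none, and the latter 2 kinds are not named. All 6 genes had an entry in RefSeq (Sscrofa11.1), used for names and gene order only. Of 169 listed genes, 96 had a probe set. The genes and lists were chosen with earlier results of these data known. Named are the 6 genes, up to 6 called genes per list or otherwise the 2 farthest from 0, and defining markers. Also named are the 3 nearest profiles per probe set among genes outside the 6, and neighbours and further list genes picked after the values were seen.

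Each passage has an ALI and an SMC array in the labels, whose deviations from the group means correlated across probe sets at 0.34, 0.14 and 0.451 for P109, P111 and P113 (other pairs, -0.424 to 0.219). They were taken as paired by the shared passage for the differences per passage and for the fit with the passage as a block. The main fit of ALI against SMC did not use this pairing. Replicates are passages of 1 line.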

Additional observations from a re-analysis of the deposited data

How the results depend on the processing

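Leaving out 1 array moved the ALI minus SMC differences within 2.12 to 2.35 (FIBIN, main probe set), 0.12 to 0.27 (FIBIN, second), 1.91 to 2.75 (BLNK), 1.95 to 2.63 (SH3BGR), 1.76 to 2.41 (FAM84A, main), 0.71 to 0.86 (FAM84A, second), 3.31 to 4.30 (LOC396867), 2.48 to 3.58 (C1H14orf37, main) and 1.78 to 2.28 (C1H14orf37, second). Quantile normalization moved each by less than the SD between replicates.

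Probe sets called higher and lower numbered 159 and 296, and 480 and 796 with the passage as a replicate block. Leaving out 1 array gave 42 to 174 higher and 71 to 258 lower, the lowest without SMC replicate 2 (42 and 86) and without ALI replicate 1 (48 and 71), with 80 and 166 without SMC replicate 1 and 170 lower without ALI replicate 2. The methods' t-test called 1468 and 1423 at an unadjusted p of at most 0.05, and 0 and 0 after Benjamini-Hochberg, where limma had 3440 at an unadjusted p under 0.05. With the block, 1 gene of the B cell receptor list, 1 of the LRAT list (1 also when the probe sets of each gene were averaged) and 2 of the retinoic acid list were called instead of 0. Without 1 array, 0 to 1 were called in the SH3BGR and the retinoic acid lists, and 0 in the others. The block changed no other list count, and quantile normalization, the filters on dim probe sets and the intensity trend moved none of the array-wide counts by more than 1.5 times. Among the marker lists, quantile normalization ended the only endothelial call (PECAM1, adjusted p = 0.0549 from limma).

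The passage trend called 0 to 179 probe sets without 1 array (179 without ALI replicate 2) and 12 with passage as a factor, and culture by passage called 0 to 68 (68 without ALI replicate 1, 2 without ALI replicate 3). Trends per 2 passages that changed sign without 1 array were not called, and ranged from -0.158 to 0.099 (FIBIN, main), -0.090 to 0.006 (FIBIN, second), -0.346 to 0.083 (SH3BGR), -0.121 to 0.048 (FAM84A, second), -0.047 to 0.598 (C1H14orf37, main) and -0.179 to 0.268 (C1H14orf37, second). The sign turned without ALI replicate 3 except for FIBIN (SMC replicates 3 and 1) and, for FAM84A, also without ALI replicate 1. The change of the difference with passage ranged from -0.045 to 0.547 (FIBIN, main), -0.217 to 0.251 (FIBIN, second), -0.732 to 0.928 (BLNK), -1.322 to 0.621 (SH3BGR), -0.614 to 1.104 (FAM84A, main), -0.786 to 1.791 (LOC396867), -1.235 to 1.987 (C1H14orf37, main) and -0.360 to 1.106 (C1H14orf37, second). Here too the sign turned without ALI replicate 3 except for FIBIN, whose main probe set turned without SMC replicate 3 (as did the second of C1H14orf37) and second without ALI or SMC replicate 1. The causes were not tested.

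Background correction was not varied, as scanner files were not used here. Signals among the lowest 25% of an array limit the sizes for LOC396867, C1H14orf37 (main probe set) and BLNK.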
